A study of Mus musculus with 8 samples.

Results

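The DNA replication licensing genes examined here are 10 genes chosen by name, with earlier results of these data known. They are Mcm2 to Mcm7, which encode the subunits of the replicative helicase, the loading factors Cdc6 and Cdt1, and the activation factors Cdc45 and Mcm10. All 10 were on the array, among 16593 genes with a symbol, and they had 20 of its 25697 probes. The RNA came from splenic Gr1+ cells, sorted magnetically after the spleens of several mice had been pooled, and was hybridised to Illumina MouseRef-8 v2 arrays. The mice were C57BL/6 females of 6 to 8 weeks. Gr1 is a surface antigen of neutrophils and some monocytes. By the labels, more than 95% of the sorted cells also carried CD11b. The PBS group (2 arrays, numbered 1 and 3) received PBS in place of both agents. The LPS group (3 arrays) received lipopolysaccharide, the bacterial endotoxin used here to induce sepsis, into the peritoneum, and PBS in place of HY209. The LPS + HY209 group (3 arrays, titled LT) received LPS and, 30 min later, HY209, which is sodium taurodeoxycholate, a bile salt, intravenously. Spleens were taken 48 h after LPS, and no group received HY209 without LPS. Each array holds RNA of cells pooled from many mice (10 to 15 spleens by 1 description and 30 to 40 by another), so p-values here reflect only how far arrays of pooled RNA differ. The comparisons answer how endotoxin, and the bile salt given after it, altered these transcripts in the Gr1+ fraction.

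Licensing is the step that allows each origin of replication to fire once in a cell cycle. The origin recognition complex marks the origin in late mitosis and G1 phase. Cdc6 and Cdt1 then load the ring of Mcm2 to Mcm7 onto DNA as an inactive double hexamer. At the start of S phase, when the kinases Cdc7-Dbf4 and Cdk2 are active, Cdc45 and the GINS complex bind each ring to form the moving helicase. Mcm10 is needed for that helicase to unwind DNA. Despite its name, Mcm10 is no part of the ring. These genes are known targets of the E2F transcription factors and are transcribed in dividing cells. In bone marrow and spleen these include granulocyte, red cell and B cell precursors, while mature neutrophils have left the cell cycle.

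The promoters are shown as a description of the set. The RefSeq promoter table (GRCm38.p6), with 250 bases before and 50 after an annotated start, held 9 of the 10 genes in 10 windows, with 2 windows for Mcm7. The 4 spellings TTTGGCGC, TTTCCCGC, TTTCGCGC and TTTGCCGC of the E2F motif were searched on both strands, and overlapping matches were kept. At least 1 of them was found in 6 of the 9 genes (Mcm3, Mcm5, Mcm6, Mcm7, Cdc6 and Cdt1), while 2.26% of all 32851 windows in the table held one. No match to these letters was found in the windows of Mcm2, Mcm10 and Cdc45. CCAAT, the box bound by NF-Y, was found on either strand in 7 of the 9 genes, all but Cdc6 and Cdt1, and in 37.4% of all windows. The stretches below belong to a pair of ring subunits with an upstream match and to both activation factors. Each ends before the outermost RefSeq start of its gene and reads 5′ to 3′ along the gene's strand, and the capitals mark E2F motif letters.
Mcm5 (chr8:75109339-75109467, plus strand): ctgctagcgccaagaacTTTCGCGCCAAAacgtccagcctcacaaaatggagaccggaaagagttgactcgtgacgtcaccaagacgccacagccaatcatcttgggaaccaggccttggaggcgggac
Mcm6 (chr1:128359706-128359875, minus strand): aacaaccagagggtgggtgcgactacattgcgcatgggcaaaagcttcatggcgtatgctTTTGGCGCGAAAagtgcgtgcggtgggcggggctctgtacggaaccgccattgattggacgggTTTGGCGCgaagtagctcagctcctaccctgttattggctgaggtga
Mcm10 (chr2:5012792-5012961, minus strand): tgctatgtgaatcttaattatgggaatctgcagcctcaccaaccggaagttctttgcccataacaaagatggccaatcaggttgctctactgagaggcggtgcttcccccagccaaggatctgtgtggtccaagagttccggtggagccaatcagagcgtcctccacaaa
Cdc45 (chr16:18811973-18812142, minus strand): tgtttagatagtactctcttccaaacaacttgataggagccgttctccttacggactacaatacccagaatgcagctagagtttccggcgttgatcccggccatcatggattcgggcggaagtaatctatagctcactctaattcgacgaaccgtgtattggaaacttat

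In the Mcm5 stretch, the capitals are 2 overlapping matches on opposite strands, which begin at positions -153 and -149 from the annotated start. Mcm6 has such an overlapping pair at -110 and -106 and a further match at -47. The matches of Mcm3 and Cdt1 lie after the start. A match describes letters only and shows no binding. Of the genes with a match, Mcm3, Cdt1 and Mcm6 (ILMN_2803399 and ILMN_1233857) fell after LPS and Cdc6 rose. Mcm5, Mcm7 and Mcm6 (ILMN_1217331) did not pass the test. Of the genes without a match, Mcm10 and Cdc45 rose and Mcm2 did not pass the test. Whether the letters relate to the direction of change was not tested.

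The deposited intensities are on a linear scale, quantile normalized by the authors. On every array 13221 probes lay above a background threshold of 168. Of the 20 member probes, 13 lay above it on all 8 arrays and were tested, at least 1 for each gene, and the other 7 lay below it on all 8. No member probe therefore entered through 1 group alone. The tested fraction of the array comprised 15001 probes. Log2 changes and folds are on the background-corrected scale, ± gives the limma standard error, and n is 2 for PBS and 3 for the other groups. A probe is said to have risen or fallen where its Benjamini-Hochberg adjusted p over all 15001 probes was under 0.05. The 3 comparisons share arrays, so their values for a gene are not independent of each other.

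The sorted cells carried strong signal for the neutrophil proteins S100a8 and S100a9. All 13 neutrophil marker genes on the array were above background on at least 2 arrays, but Mmp8 was below it in PBS (154.5 and 145.9). Itgam, which encodes the CD11b chain of the sorted cells, read 506 and 565 in PBS, 2246 to 3063 after LPS and 2263 to 3129 after LPS + HY209. Markers of other cell types were also present. Erythroid, B cell, T and NK cell and macrophage sums were highest in PBS, while granulocyte progenitor and neutrophil sums were lowest there. The summed intensity of 12 erythroid genes was 20530 to 23022 in PBS, 6007 to 6055 in LPS and 9779 to 13065 in LPS + HY209, with Epb42 and Rhd below background. For 8 B cell genes it was 79465 to 81830, 15119 to 15645 and 23250 to 25187, with Pax5 below background. In bulk RNA, fewer cells of a type and less RNA per cell cannot be told apart.

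The first comparison set LPS against PBS. Part of the helicase ring and the loader Cdt1 fell slightly, while the activation factors Mcm10 and Cdc45 and the loader Cdc6 rose. Of the 13 probes, 5 (of Mcm3, Mcm4, Mcm6 and Cdt1) fell, against 27.1% of all tested probes, and 4 (of Mcm10, Cdc6 and Cdc45) rose, against 25.3%. Read against these backgrounds, neither count sets the members apart, and the median log2 change was -0.17 for the members and 0.02 for all probes. Every change was under 2-fold.

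Mcm4 had the clearest fall among the ring subunits. Its probe ILMN_2936427 read 6868 and 6921 in PBS, 5034, 4905 and 4566 in LPS, and 7133, 6266 and 6025 in LPS + HY209. Every LPS array lay below both PBS arrays, and the log2 change was -0.52 ± 0.10 (1.43-fold lower, adjusted p = 0.0010). Mcm6, another of the ring's ATPase subunits, was read by 3 probes above background. On ILMN_1233857 the values were 742 and 951 in PBS, 582, 614 and 554 in LPS, and 896, 998 and 869 in LPS + HY209. Here too the LPS arrays lay below both PBS arrays (-0.58 ± 0.12, adjusted p = 0.0019). A second probe, ILMN_2803399, fell by 0.38 on the log2 scale (SE 0.12, adjusted p = 0.017), and ILMN_1217331 stood at -0.12 ± 0.12 (adjusted p = 0.41) with overlapping groups. The 3 probes of Mcm6 thus had the same sign but not the same call.

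Mcm3, another ring subunit, read 293 and 291 in PBS, 229, 263 and 246 in LPS, and 342, 367 and 300 in LPS + HY209 (probe ILMN_2851040). The LPS arrays were all lower than PBS (-0.34 ± 0.12, adjusted p = 0.036). Mcm2, whose product binds histones at the fork, read 865 and 888 in PBS and 772, 733 and 764 in LPS (probe ILMN_1250907). Its LPS arrays were lower, but the change of -0.23 ± 0.12 did not pass the test (adjusted p = 0.12). Mcm5, which forms the gate of the ring with Mcm2, read 3046 and 2787 in PBS and 2553, 2588 and 2636 in LPS (probe ILMN_2742849). Its LPS arrays were also lower, without passing the test (-0.17 ± 0.12, adjusted p = 0.27). Mcm7 read 412 and 412 in PBS and 419, 406 and 451 in LPS (probe ILMN_2673889). Its groups overlapped, and the change was 0.05 ± 0.12 with a 95% interval of -0.20 to 0.31 (adjusted p = 0.73).

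The loading factors moved in opposite directions. Cdt1, which brings the ring to the origin and is destroyed once S phase starts, read 1783 and 1884 in PBS, 1551, 1443 and 1591 in LPS, and 2142, 2038 and 1988 in LPS + HY209 (probe ILMN_2730463). The LPS arrays lay lowest, below both other groups, and the fall was -0.27 ± 0.09 (adjusted p = 0.028). Cdc6, the ATPase that recruits the ring together with Cdt1, read 218 and 212 in PBS, 266, 232 and 275 in LPS, and 315, 274 and 277 in LPS + HY209 (probe ILMN_2597255). Every LPS array was above both PBS arrays (0.36 ± 0.12, adjusted p = 0.028), at intensities not far above background.

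The activation factors rose. Mcm10 read 522 and 554 in PBS, 918, 865 and 865 in LPS, and 1165, 983 and 1231 in LPS + HY209 (probe ILMN_2970532). The LPS arrays lay well above PBS, at 1.73-fold (0.79 ± 0.11, adjusted p = 9.1e-05). The other Mcm10 probe, ILMN_2679464, read 198 and 177 in PBS, 227, 242 and 211 in LPS, and 256, 231 and 273 in LPS + HY209. It rose as well (0.41 ± 0.13, adjusted p = 0.018). Cdc45, a core part of the active helicase, read 362 and 361 in PBS, 508, 480 and 484 in LPS, and 602, 552 and 594 in LPS + HY209 (probe ILMN_2919433). Its 3 groups did not overlap, and LPS stood 1.44-fold above PBS (0.52 ± 0.09, adjusted p = 0.00045).

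The calls of Mcm4, Mcm6 (ILMN_1233857), Mcm10 (ILMN_2970532) and Cdc45 held under each alternative that was run. Without PBS 3, 2 probes fell and 2 rose, since Mcm3, Mcm6 (ILMN_2803399), Mcm10 (ILMN_2679464), Cdc6 and Cdt1 then missed the threshold. Without LPS 1, 3 fell and 3 rose, as Mcm3, Cdc6 and Cdt1 missed it. The same genes missed it without PBS 1, which leaves 1 PBS array. Without LPS 3, 3 fell and 3 rose, as Mcm3, Mcm6 (ILMN_2803399) and Cdc6 missed it. With LPS 2 left out, Mcm10 (ILMN_2679464) and Cdt1 missed it. Adjusted p for these reached at most 0.20.

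**Figure D1:**
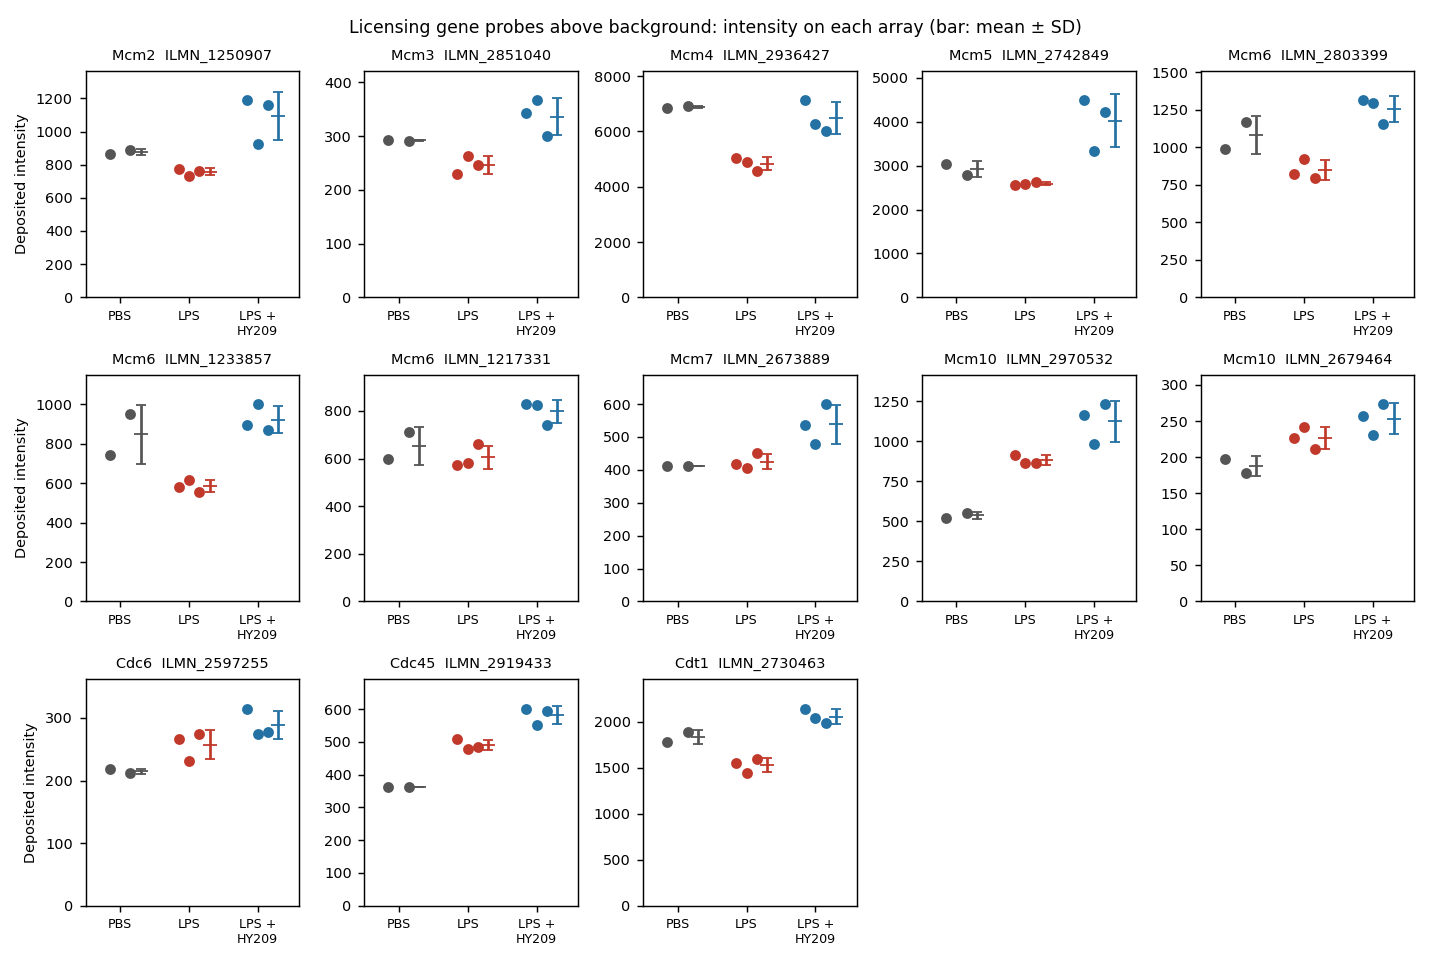
Deposited intensity (linear axis from 0) of the 13 licensing gene probes above background on each of the 8 arrays, 1 panel a probe, with points for arrays and a bar for the mean ± SD of the group (n = 2 for PBS, 3 for the others). LPS arrays lie lowest for Mcm2, Mcm3, Mcm4, Mcm5 and Cdt1, while for Mcm10, Cdc6 and Cdc45 both PBS arrays lie lowest.

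The second comparison set LPS + HY209 against LPS alone. Here the members moved together: 10 of the 13 probes, of 8 of the 10 genes, rose, against 4.63% of all tested probes. The set was chosen with earlier results of these data known, so the share beside it is a description and not a test. No member probe fell by limma, and none had an unadjusted p under 0.05 for a fall, while 2.47% of all probes fell. The rises were small, between 0.37 and 0.73 on the log2 scale. The median log2 change was 0.44 for the members and -0.01 for all probes.

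All 6 ring subunits rose. The largest change was that of Mcm6 (ILMN_1233857), at 0.73 ± 0.11 (adjusted p = 0.0040), and its other probes rose by 0.61 ± 0.10 (ILMN_2803399, adjusted p = 0.0070) and 0.44 ± 0.10 (ILMN_1217331, adjusted p = 0.027). Mcm5 read 4493, 3344 and 4233 with HY209 and rose 1.55-fold (0.64 ± 0.11, adjusted p = 0.0079). Mcm3 rose by 0.59 ± 0.11 (adjusted p = 0.011). Mcm2, at 1189, 926 and 1160.0 with HY209, rose 1.48-fold (0.56 ± 0.11, adjusted p = 0.011). For all of these the HY209 arrays lay above every LPS array. Mcm4 rose by 0.42 ± 0.09 (adjusted p = 0.019), and Mcm7, at 537, 479 and 599, by 0.39 ± 0.10 (adjusted p = 0.044).

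Of the loaders, Cdt1 rose 1.36-fold (0.45 ± 0.08, adjusted p = 0.011) and Cdc6 did not pass the test (0.22 ± 0.11, 95% interval -0.02 to 0.46, adjusted p = 0.25). Mcm10 rose 1.29-fold on ILMN_2970532 (0.37 ± 0.10, adjusted p = 0.049) and stood at 0.22 ± 0.11 on the other (adjusted p = 0.26). Cdc45 stood at 0.28 ± 0.08, just short of the threshold (adjusted p = 0.060), although its groups did not overlap. Every LPS + HY209 array lay above every LPS array for 11 of the 13 probes, all but Mcm10 (ILMN_2679464) and Cdc6, against 13.5% of all tested probes. Whether the change of Mcm10 or Cdc45 differed from that of the ring subunits was not tested.

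The calls of Mcm5 and of 2 Mcm6 probes (ILMN_2803399 and ILMN_1233857) held under each alternative run, and no member changed sign in this comparison. The count rested on 1 array more than on any other: without LPS + HY209 replicate 1, only those 3 probes rose, while the count over all probes went from 694 to 206. That count was 329, 460 and 345 without LPS 1, 2 and 3. In that setting Mcm2, Mcm3 and Cdt1 missed the threshold narrowly (adjusted p = 0.058, 0.055 and 0.053). Mcm7 and Mcm10 missed it without any 1 of the arrays except LPS + HY209 replicate 2 (adjusted p up to 0.13 and 0.16). These 2 genes also missed it with no filter on dim probes and with only the 2 groups compared. Mcm4 also missed it without LPS 3, and Mcm6 (ILMN_1217331) without LPS + HY209 replicate 1 or 2 or LPS 1 or 2 (adjusted p up to 0.076 and 0.11).

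**Figure D2:**
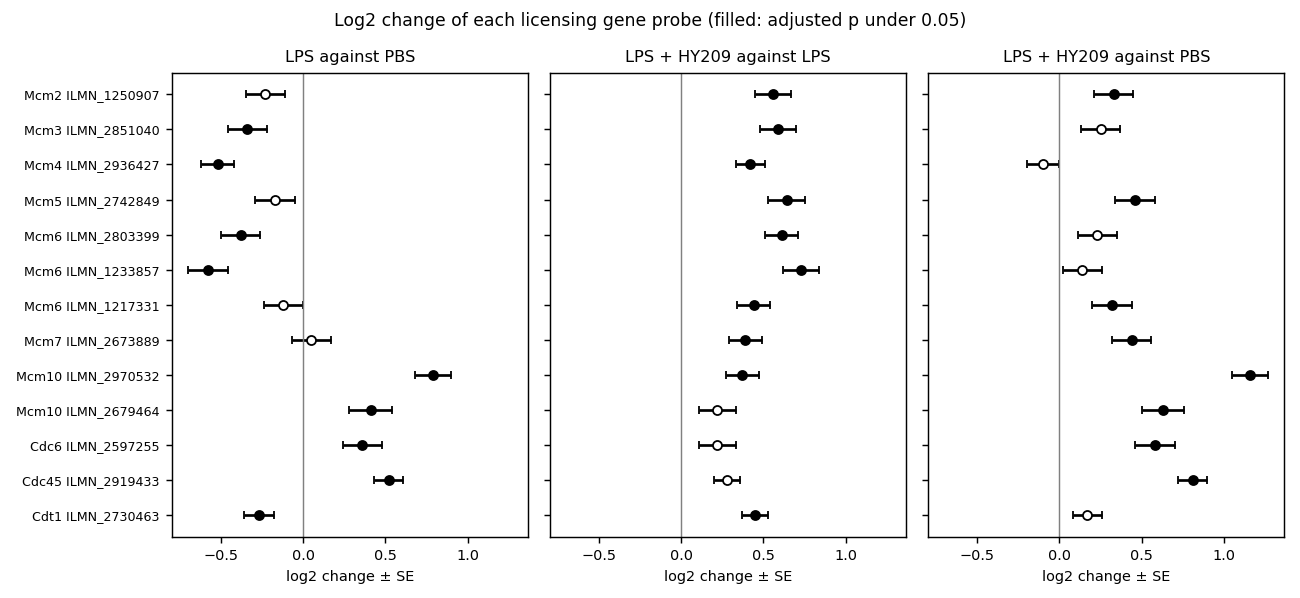
Log2 change ± SE (x axis) of each tested licensing gene probe (y axis) in the 3 comparisons, with filled points where the adjusted p was under 0.05. In LPS against PBS the ring subunits and Cdt1 lie at or left of 0 but for Mcm7, and Mcm10, Cdc6 and Cdc45 lie to the right, while in LPS + HY209 against LPS all 13 points lie to the right.

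The third comparison set LPS + HY209 against PBS. Of the 13 probes 8 rose, against 21.3% of all tested probes, and 0 fell, against 22.9%. By limma 0 had an unadjusted p under 0.05 for a fall. The median log2 change was 0.33 for the members and 0.01 for all probes. Mcm10 and Cdc45 had the largest rises among the members. Mcm10 was 2.24-fold higher on ILMN_2970532 (1.16 ± 0.11, adjusted p = 5.2e-06) and 1.55-fold on the other (0.63 ± 0.13, adjusted p = 0.0016). Cdc45 was 1.75-fold higher (0.81 ± 0.09, adjusted p = 2.0e-05), and Cdc6 was higher by 0.58 ± 0.12 (adjusted p = 0.0021).

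The ring subunits came out at or somewhat above the PBS level. Mcm5 (0.46 ± 0.12, adjusted p = 0.0096), Mcm7 (0.44 ± 0.12, adjusted p = 0.0079), Mcm2 (0.33 ± 0.12, adjusted p = 0.041) and 1 Mcm6 probe (ILMN_1217331, 0.32 ± 0.12, adjusted p = 0.043) rose. The other Mcm6 probes stood at 0.23 ± 0.12 and 0.14 ± 0.12, Mcm3 at 0.25 ± 0.12 and Cdt1 at 0.17 ± 0.09, none past the test, although Mcm3 passed it without LPS + HY209 replicate 3 (adjusted p = 0.032). Mcm4 alone was on the lower side, at -0.10 ± 0.10 with an interval of -0.32 to 0.13 and overlapping arrays. The calls of Mcm10, Cdc6 and Cdc45 held under each alternative. Mcm5 missed the threshold without PBS 3 (adjusted p = 0.094), Mcm7 without PBS 1 or PBS 3 (adjusted p up to 0.051), Mcm2 without any 1 array but LPS 2 and LPS + HY209 replicate 2 (up to 0.17), and Mcm6 (ILMN_1217331) without PBS 1, LPS 1 or LPS + HY209 replicate 1 or 2 (up to 0.37). Without PBS 1 or PBS 3, 5 probes rose in place of 8.

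By the order of the group means, LPS was lowest for Mcm2 to Mcm6 and Cdt1, and PBS was lowest for Mcm7, Mcm10, Cdc6 and Cdc45. The tests separate these groups to different degrees, and no test compared one gene's pattern with another's. For Mcm4, Mcm3, Cdt1 and Mcm6 (ILMN_2803399 and ILMN_1233857), LPS was lowest and differed from both other groups, which did not differ from each other beyond the test. For Cdc45, Cdc6 and both Mcm10 probes, PBS was lowest and differed from both other groups. Among these, LPS and LPS + HY209 differed by the test only for Mcm10 (ILMN_2970532). Mcm2, Mcm5, Mcm7 and Mcm6 (ILMN_1217331) had LPS + HY209 above both other groups by the test and no difference past it between PBS and LPS.

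Within the LPS + HY209 group the members did not all vary alike. Replicate 2 was the lowest of the 3 arrays for Mcm2, Mcm5, Mcm7, Cdc6, Cdc45 and both Mcm10 probes, and the highest for Mcm3 and 1 Mcm6 probe (ILMN_1233857). The SD of Mcm5 was 602 around a mean of 4023 with HY209, against 41.4 around 2592 in LPS. Relative to the PBS mean, the average log2 value of Mcm2 to Mcm7 was 0.37, 0.18 and 0.26 on the 3 LPS + HY209 arrays and -0.29, -0.24 and -0.27 on the LPS arrays. For Mcm10, Cdc6 and Cdc45 it was 0.94, 0.72 and 0.89, and 0.62, 0.47 and 0.59.

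Marker genes of other cells also changed, and the direction with HY209 differed between cell types. The counts that follow stand against 27.1% of all probes that fell and 25.3% that rose after LPS, and 4.63% that rose and 2.47% that fell with HY209 against LPS. Of 16 erythroid probes 12 fell after LPS and 10 rose with HY209. Of 14 B cell probes, all fell after LPS and 9 rose with HY209. Against LPS, 0 of 10 T and NK cell probes passed the test with HY209, and 2 of 9 plasma cell probes rose. On the 3 LPS + HY209 arrays the erythroid sums were 13065, 9779 and 11628, and the B cell sums 23250, 25187 and 25038. Replicate 1 was highest and replicate 2 lowest in the averages of Mcm2 to Mcm7 and in the erythroid, T and NK cell, plasma cell, macrophage and platelet sums, but not in the B cell, granulocyte progenitor and neutrophil sums. The 8 megakaryocyte and platelet probes had 7 rises with HY209, with sums of 1720 to 1804 in LPS and 2554 to 2707 with HY209. Between LPS + HY209 and PBS, 9 of 16 erythroid, 14 of 14 B cell and 10 of 10 T and NK cell probes fell, as did 22.9% of all probes. The macrophage list had 13 falls among 14 probes and the plasma cell list 4 among 9. Rises were also seen, against 21.3% of all probes. Of 8 megakaryocyte and platelet probes 3 rose and 2 fell, of 14 granulocyte progenitor probes 7 rose and 2 fell, and of 19 neutrophil probes 8 rose and 4 fell.

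The markers of granulocyte precursors, taken as a sum, were lowest in PBS. Their sum over 14 probes of 9 genes was 4983 and 5048 in PBS, 8796 to 9203 in LPS and 8290 to 9185 in LPS + HY209. After LPS, 6 of their 14 probes rose and 1 fell, and with HY209 2 rose. Most of the higher sum came from Cebpe, a transcription factor of granule formation, at a mean of 1806 in PBS and 4969 in LPS. On the probe with the highest mean of each gene, Cebpe, Prtn3, Elane, Mpo and Ms4a3 rose after LPS. Gfi1 (0.16), Ctsg (0.00), Cd34 (-0.07) and Fcnb (-0.31) did not pass the test. Fcnb and Cd34 had their highest group mean in PBS, and Fcnb fell in LPS + HY209 against PBS (-0.43 ± 0.15, adjusted p = 0.035). Of 19 neutrophil probes, 0 passed the test between LPS + HY209 and LPS by limma, with 1 fall and 0 rises at an unadjusted p under 0.05. Macrophage markers (11 genes) summed to 259931 and 263730 in PBS, 74921 to 78338 in LPS and 61318 to 66736 with HY209, where 5 of 14 probes fell against LPS. T and NK cell sums over 8 genes were 61461 and 64477, 17537 to 17917 and 17823 to 23807, with Cd4, Cd8a and Ncr1 below background. Plasma cell sums over 9 genes were 29838 and 29876, 25823 to 26770 and 25330 to 29188, with Prdm1 below background. Some tested marker probes were below background on every array of at least 1 group. They were 6 of 16 erythroid, 3 of 14 B cell, 2 of 14 granulocyte progenitor, 2 of 19 neutrophil, 4 of 9 plasma cell and 1 of 10 T and NK cell probes. The counts of these lists thus hold probes that entered through the groups where they were high. Both such granulocyte progenitor probes were below background in PBS. The part of any of these cell types in the changes of the licensing genes was not tested.

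**Figure D3:**
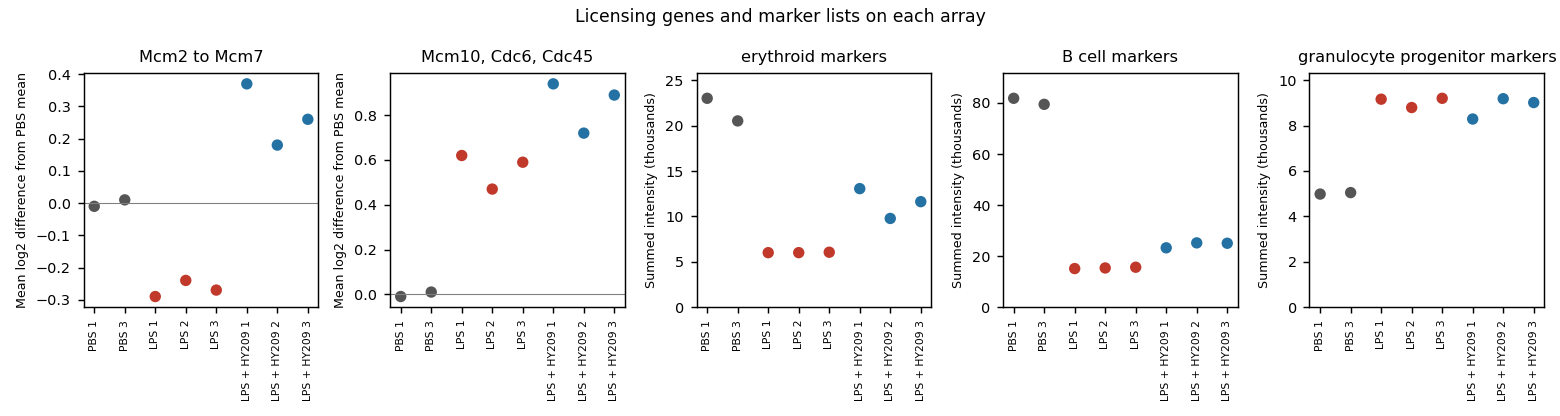
Each point is 1 array (x axis). The left pair of panels gives the mean log2 difference from the PBS mean for Mcm2 to Mcm7 and for Mcm10, Cdc6 and Cdc45 (brightest probe of each), and the others give the summed deposited intensity, scaled down as the axis says, of the erythroid, B cell and granulocyte progenitor markers. LPS arrays are lowest for Mcm2 to Mcm7 and for the erythroid and B cell sums, and PBS arrays are lowest for the other pair of panels.

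The 7 member probes below background were 2 of Mcm4, 1 of Mcm6, 3 of Cdc6 and 1 of Cdc45. They read 124 to 163 over all arrays, so no level can be given for them. The other probes of those genes carried signal, and for Cdc6 the result rests on 1 of 4 probes. No pair of tested probes of a gene was called in opposite directions.

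Other genes of replication were read from lists chosen for their roles, also with earlier results of these data known, so their shares are descriptions. In each list 1 to 5 tested probes were below background on every array of at least 1 group. The origin recognition complex and other licensing partners (21 probes of 14 genes) were called in both directions. After LPS 6 probes fell (28.6%, against 27.1% of all probes) and 3 rose (14.3%, against 25.3%), so the falls were near the background share. The origin recognition subunits Orc3 (-1.06 ± 0.11) and Orc5 (-0.65 ± 0.11), Skp2, which targets Cdt1 for degradation (-0.78 ± 0.10), and the ubiquitin ligase scaffold Cul4b (-0.73 ± 0.13) fell. Kat7, a histone acetyltransferase that binds the origin complex (0.37 ± 0.11), and Orc2 (0.36 ± 0.13) rose, Orc2 from a PBS mean of 167 that lies at the threshold. The third was a Cul4a probe that was not above background on either PBS array, so its change has no exact size. With HY209 against LPS only Orc6 (0.43 ± 0.10, adjusted p = 0.025) and the fork adaptor Wdhd1 (0.38 ± 0.10, adjusted p = 0.049) rose, and the list median was 0.00. These rises were 9.52% of the list's probes, against 4.63% of all probes. The call of Wdhd1 was lost under 10 of the 17 alternatives, and that of Orc6 under 5. Orc6 (0.65 ± 0.11), Kat7 (0.36 ± 0.11) and the same Cul4a probe were above PBS by the test, and 6 probes below it, Orc3 (-0.94 ± 0.11) and Skp2 (-0.80 ± 0.10) among them. The shares were 14.3% above PBS, against 21.3% of all probes, and 28.6% below it, against 22.9%.

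Genes of helicase activation (21 probes of 12 genes) changed little after LPS. The 1 rise (4.76%, against 25.3% of all probes) was that of the checkpoint mediator Clspn (0.39 ± 0.12, adjusted p = 0.019), and 0 fell, against 27.1%. With HY209 against LPS 5 of the 21 rose (23.8%, against 4.63% of all probes), with a list median of 0.23. They were both probes of Clspn (0.60 ± 0.11 and 0.59 ± 0.10), the fork protection factor Tipin (0.57 ± 0.11) and both parts of the kinase that phosphorylates the ring, Cdc7 (0.36 ± 0.09, adjusted p = 0.036) and Dbf4 (0.34 ± 0.09, adjusted p = 0.045). The calls of Cdc7 and Dbf4 were lost without any 1 array but LPS + HY209 replicate 2. Against PBS 6 rose (28.6%, against 21.3% of all probes, so not far from the background share). They included Clspn (0.99 ± 0.12), Tipin (0.56 ± 0.12) and its partner Timeless (0.44 ± 0.10).

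At the fork (30 probes of 22 genes), 5 probes rose (16.7%, against 25.3% of all probes) and 8 fell (26.7%, against 27.1%) after LPS, so neither share was above the background. The clamp loader subunit Rfc2 (0.46 ± 0.10), the primase partner Pola2 (0.44 ± 0.09), the leading strand polymerase Pole (0.35 ± 0.09) and probes of Prim2 (0.39 ± 0.10) and Pole3 (0.32 ± 0.10) rose. The single-strand binding protein Rpa1 (-1.28 ± 0.10) and Pole4 (-1.18 ± 0.12) had the largest falls. With HY209 6 rose against LPS (20.0%, against 4.63% of all probes), and the list median was 0.17. The DNA ligase Lig1 (0.57 ± 0.10, adjusted p = 0.0067) and the polymerase Pold1 (0.50 ± 0.10, adjusted p = 0.014) led them. Against PBS 9 rose (30.0%, against 21.3% of all probes), with Pole (0.72 ± 0.09) and Pola2 (0.54 ± 0.09) first. The 3 that fell (10.0%, against 22.9%) were Pole4 (-0.96 ± 0.12), Rpa1 (-0.87 ± 0.10) and Pold1 (-0.53 ± 0.11).

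Nucleotide supply and chromatin genes of S phase (23 probes of 14 genes) had 3 rises and 3 falls after LPS (of 23 probes, both shares below those over all probes). The histone chaperone subunits Chaf1b (0.58 ± 0.10) and Chaf1a (0.35 ± 0.09) and thymidylate synthase Tyms (0.34 ± 0.10) rose. The kinases Dck (-1.04 ± 0.10) and Tk1 (-0.34 ± 0.10) and the methyltransferase Dnmt1 (-0.51 ± 0.10) fell. With HY209 8 rose against LPS (34.8%, against 4.63% of all probes), and the list median was 0.26. Uhrf1, which recruits Dnmt1 (0.80 ± 0.15, adjusted p = 0.0098), and Chaf1a (0.59 ± 0.08, adjusted p = 0.0026) led them. Against PBS 11 rose (47.8%, against 21.3% of all probes), with Uhrf1 (0.93 ± 0.16) and Chaf1a (0.93 ± 0.09) first. Dck (-0.84 ± 0.10) and Dnmt1 (-0.26 ± 0.10, adjusted p = 0.044) fell (8.70%, against 22.9%). The call of Dnmt1 was lost under 11 of the 17 alternatives, and that of Dck under 0.

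The E2F and Rb family regulators (33 probes of 20 genes) had 11 rises (33.3%, against 25.3% of all probes) and 14 falls (42.4%, against 27.1%) after LPS. The cyclin-dependent kinase inhibitors Cdkn1a (2.79 ± 0.21) and Cdkn2d (1.76 ± 0.11) rose most, and the G1 cyclin Ccnd1 (-1.55 ± 0.10) and the E2F partner Tfdp2 (-1.22 ± 0.14) fell most. With HY209 against LPS 2 of the 33 rose (6.06%, against 4.63% of all probes), near the background share. Both were probes of the repressor E2f6 (0.33 ± 0.08 and 0.36 ± 0.09), and the list median was 0.02. The call of the brighter E2f6 probe was lost under 9 of the 17 alternatives. Against PBS 11 rose (33.3%, against 21.3% of all probes) and 9 fell (27.3%, against 22.9%). Cdkn1a (2.70 ± 0.21) and Ccnd1 (-1.69 ± 0.10) were again at the ends.

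Mitosis genes (19 probes of 15 genes) had 3 rises (15.8%, against 25.3% of all probes) and 7 falls (36.8%, against 27.1%) after LPS. The microtubule depolymerase Kif2c (0.61 ± 0.10), the checkpoint kinase Bub1b (0.30 ± 0.10) and a probe of Cdc20 (0.55 ± 0.12) rose. The midzone motor Kif23 (-1.08 ± 0.10) and the centromeric histone Cenpa (-0.61 ± 0.10) had the largest falls. With HY209 against LPS 11 of the 19 rose (57.9%, against 4.63% of all probes), and the list median was 0.49. The topoisomerase Top2a (0.87 ± 0.13, adjusted p = 0.0034) and the microtubule bundler Prc1 (0.75 ± 0.11, adjusted p = 0.0038) led them. Against PBS 14 rose (73.7%, against 21.3% of all probes), led by Kif2c (0.84 ± 0.10) and the kinase Plk1 (0.63 ± 0.16). Kif23 alone fell (-0.97 ± 0.10), or 5.26% of the probes, against 22.9%. Of the 67 calls that this and the other lists name by rule, 20 were lost under at least 1 alternative.

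**Figure D4:**
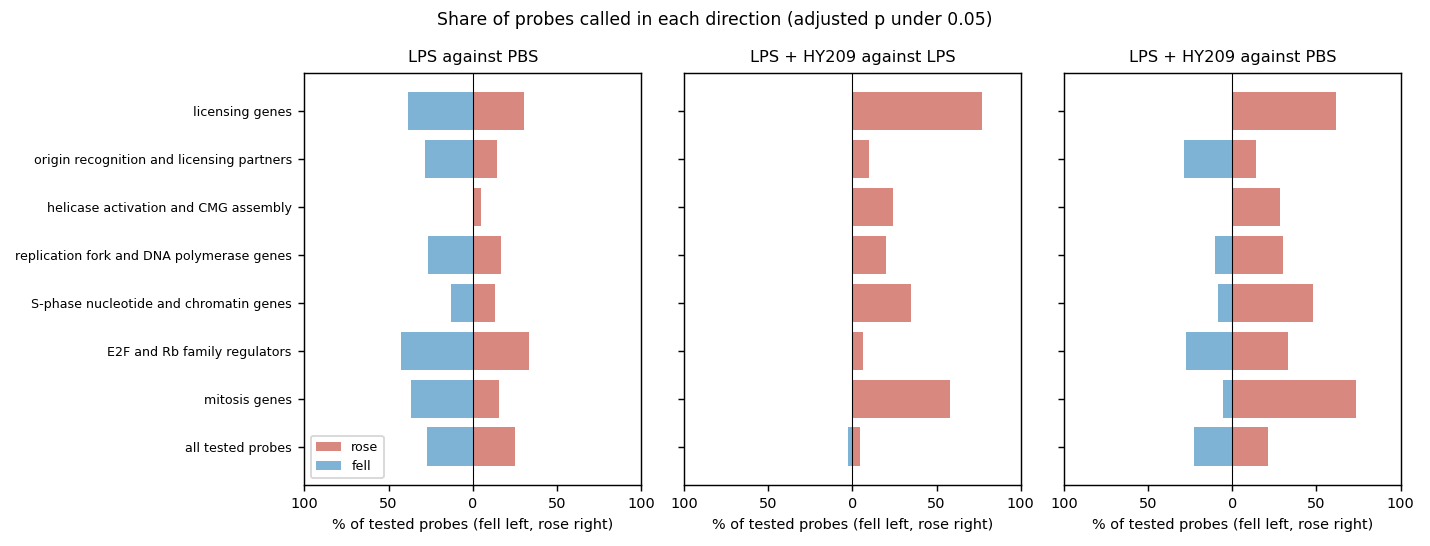
Share of tested probes (x axis, %) that rose (right) or fell (left) at an adjusted p under 0.05, for the licensing genes, 6 lists of related genes and all 15001 tested probes, in the 3 comparisons. With HY209 against LPS the licensing genes (10 of 13 probes) and the mitosis genes (11 of 19) have the longest bars, against 4.63% of all probes.

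The 8 genes outside the members whose values were most like the mean of Mcm2 to Mcm7 over the 8 arrays were Tfrc, Ruvbl1, Brip1, Birc5, Ptbp1, Mrpl42, Ctps and Nob1. Their Pearson r ran from 0.967 to 0.989, a description in which the arrays share 3 groups and each gene was picked for its likeness. The transferrin receptor Tfrc, which is also on the erythroid list, read 1359 and 1440 in PBS, 1046, 1125 and 1093 in LPS, and 1766, 1515 and 1609 in LPS + HY209. Birc5, a subunit of the mitotic chromosomal passenger complex that is also on the mitosis list, read 544 and 578 in PBS, 480, 468 and 455 in LPS, and 831, 631 and 728 in LPS + HY209. Both had all LPS arrays lowest, and in both LPS + HY209 replicate 1 was the highest array and replicate 2 the lowest of its group, as for the mean of Mcm2 to Mcm7.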

How the data were processed

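The authors deposited probe intensity values of 8 arrays, on a linear scale and quantile normalized (sorted values of the arrays differed by at most 0.0616%). GenomeStudio 2011.1 and R 2.15.0 are named in the submitters' processing notes, and the steps are otherwise not given in the sources used here. A second deposited table with 8 signal columns was not used, since its column names match no sample. Groups were taken from the sample titles.

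Intensities were background-corrected (normexp, offset 50), quantile normalized and log2 transformed in limma 3.58.1 (R 4.3.3). The threshold of background (167.7) was the mode (147.8) plus 1.645 times the spread of its left side (0.11 on the log2 scale). Probes above it on at least 2 arrays were tested (15001 of 25697). All probes of a gene were kept apart. The 8 arrays entered a single model with a mean for each group (lmFit, then eBayes; prior degrees of freedom 6.47, residual 5). Tests were two-sided, and p-values were adjusted by Benjamini-Hochberg across the tested probes. Standard errors had medians of 0.10 to 0.11 (log2). The code was tested on simulated data. Probe symbols came from the platform annotation, where 23978 probes had 1 symbol, 0 several and 1719 none, and 0 symbols changed among 23962 matched to RefSeq by Entrez identifier. The number of arrays limits the precision.

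The members and gene lists were chosen with earlier results of these data known. Genes of the lists were named by a rule: per comparison and direction, the 2 largest changes among genes that passed the test on their brightest probe, or all of them where 5 or fewer passed. Probes other than the brightest, and the markers with values, were named after their values were seen. Arrays that share a replicate number form 7 pairs, whose deviations from the group means had correlations between -0.20 and 0.32. Only 2 were over 0.1, both between LPS + HY209 and LPS (0.32 and 0.28). With 2 PBS arrays, their deviations are equal and opposite, so the check cannot settle whether the numbers pair arrays. With PBS 3 numbered 2, its pairs stood at 0.26 and 0.07. The main model took no pairing, and the replicate block was run as an alternative. The 17 alternatives were no background correction, scaling to the 75th percentile, 2 other filters, 1 probe per gene, another variance prior, fits of 2 groups, a replicate block with either numbering of PBS 3, and each array left out.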

Additional observations from a re-analysis of the deposited data

How the results depend on the processing

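Under the alternatives that keep every array, the counts of called probes held within 1.5 times the reported values, with these exceptions: with no filter on dim probes, 3 in place of 5 member probes fell after LPS, as Mcm3 and Cdt1 missed the threshold, and 246 in place of 370 of all probes fell with HY209 against LPS. Single calls were lost within that range too. With no filter on dim probes, Mcm7 and Mcm10 (ILMN_2970532) missed the threshold against LPS, and Mcm2 and Mcm6 (ILMN_1217331) against PBS, with HY209. With only the 2 groups compared, Mcm7 and that Mcm10 probe missed it against LPS, and Mcm2 against PBS. Leaving out 1 array at a time gave 2 to 4 member probes that rose and 2 to 6 that fell after LPS, 3 to 10 that rose with HY209 against LPS, and 5 to 8 that rose against PBS. Over all probes it gave 206 to 806 that rose and 121 to 378 that fell with HY209 against LPS. The signs that turned were those of changes that had not passed the test: Mcm6 (ILMN_1233857) against PBS with HY209 (-0.05 without PBS 1, 0.34 without PBS 3), Mcm6 (ILMN_1217331) after LPS (0.02 without PBS 3, -0.26 without PBS 1) and Mcm7 after LPS (-0.02 with the replicate block and PBS 3 numbered 2). With the replicate number as a block, 4 member probes fell after LPS (Cdt1 missed the threshold, adjusted p = 0.054), 10 rose with HY209 against LPS and 7 rose against PBS, where Mcm6 (ILMN_1217331) had an adjusted p of 0.051. The block gave 904 rises and 500 falls over all probes with HY209 against LPS. With the other numbering of PBS 3, Mcm3 after LPS (adjusted p = 0.056) and, against PBS with HY209, Mcm2 (0.055) and Mcm6 (ILMN_1217331, 0.061) missed the threshold, while Mcm6 (ILMN_2803399) rose against PBS (0.29, adjusted p = 0.040). Scaling to the 75th percentile changed no call of a member. Where a cause is not named, it was not tested. With 2 or 3 arrays in a group, and Cdc6 and the dimmer Mcm10 probe near background, small changes of these were at the limit of detection.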
